A study of Mus musculus with 12 samples.

Results

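Interleukin 23 is a dimer of the p19 chain (Il23a) and the p40 chain (Il12b) that dendritic cells and macrophages secrete and that acts on lymphocytes carrying its receptor (Il23r). Those lymphocytes, T helper 17 cells, gamma-delta T cells and group 3 innate lymphoid cells, answer with interleukins 17A and 17F (Il17a, Il17f) and interleukin 22 (Il22), which act on receptors of epithelial and stromal cells (Il17ra, Il22ra1) and induce neutrophil-attracting chemokines and antimicrobial proteins. Il22ra2 encodes a secreted decoy receptor that binds interleukin 22. These 9 genes were followed here. They were chosen by name, with earlier results of these data known, and all 9 were on the array, on 10 probes among 39429 probes for 30139 genes or transcripts. Of the 9, 7 were among the 20082 genes tested, that is, those whose probe stood well above background throughout 1 or more of the 3 groups. Il12b and Il23r did not pass that filter.

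RNA was taken from colorectal tissue of female C57BL/6N mice aged 14 weeks and fed CE-2 chow, and each sample was hybridised to its own single-colour Agilent array. The groups were colorectal polyps of Apc+/Δ716 mice (n = 4), normal colorectal tissue of the same 4 Apc+/Δ716 mice (n = 4, called Apc normal tissue), and normal colorectal tissue of wild-type mice (n = 4). Apc+/Δ716 mice carry 1 germline truncating allele of Apc, a tumour suppressor that limits Wnt signalling, so their normal tissue carries it too. Polyps and Apc normal tissue came from mice 103, 106, 107 and 110, and wild-type tissue from mice 102, 104, 105 and 108. How many polyps stand behind an array is not given in the sources used.

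Levels below are log2 signals less the 75th percentile of their array, so that 0 is that percentile, and means are given ± SD. They are compared between groups for 1 probe and never between probes. Differences are log2 fold changes ± SE from limma, and a gene was called at a Benjamini-Hochberg adjusted p under 0.05 over all 20082 genes. A probe that is not well above background on any array of a group has only an upper limit there, and its fold is given as a bound. Per array, 64.6% to 73.8% of spots stood well above background and 0 were saturated. Precision is limited by the number of arrays. Epithelial marker genes averaged 4.14 to 4.79 in polyps, 4.88 to 5.62 in Apc normal and 5.03 to 5.39 in wild-type tissue. Smooth muscle markers averaged −1.21 to 0.42 in polyps, against 3.30 to 3.84 in Apc normal and 3.82 to 4.20 in wild-type tissue. All 8 were called lower in polyps than in Apc normal and wild-type tissue, as were 24.9% and 32.8% of all genes tested. Apc itself read −3.67 to −3.45 in polyps, −3.27 to −2.93 in Apc normal and −3.25 to −3.19 in wild-type tissue. The sources do not say whether its probe reads the truncated allele, so it does not check the genotype labels. Slide 1 held all wild-type arrays, slide 2 both tissues of mice 103 and 106, and slide 3 both tissues of mice 107 and 110, so slide and genotype cannot be told apart in comparisons with wild-type tissue. In whole tissue, fewer cells of a type and less RNA per cell cannot be told apart either.

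The 2 interleukin 17 genes lie next to each other on chromosome 1. Their promoters are shown because both genes were higher in polyps than in Apc normal tissue, with matches to 2 motifs in capitals: the half-site that many nuclear receptors bind (AGGTCA, or TGACCT read from the other strand), and an AP-1 element (TGANTCA). Both are RefSeq sequences of assembly GRCm38.p6 that run from 250 bases before the transcript start to 50 after it. The Il17a promoter lies at chr1:20730655-20730954 on the plus strand and the Il17f promoter at chr1:20784221-20784520 on the minus strand.
Il17a: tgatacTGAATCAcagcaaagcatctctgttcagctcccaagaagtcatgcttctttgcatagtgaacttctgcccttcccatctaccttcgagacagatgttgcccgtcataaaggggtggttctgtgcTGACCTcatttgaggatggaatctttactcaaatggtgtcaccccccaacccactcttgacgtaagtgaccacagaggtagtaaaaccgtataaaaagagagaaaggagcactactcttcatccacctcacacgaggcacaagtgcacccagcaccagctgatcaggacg
Il17f: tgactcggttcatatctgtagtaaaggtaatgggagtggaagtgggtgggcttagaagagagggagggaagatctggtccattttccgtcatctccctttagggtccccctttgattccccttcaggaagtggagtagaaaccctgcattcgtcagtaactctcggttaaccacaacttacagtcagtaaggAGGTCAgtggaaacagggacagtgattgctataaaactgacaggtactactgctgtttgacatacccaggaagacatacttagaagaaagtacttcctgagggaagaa

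The nuclear receptor half-site was found in 3 of the 6 members with a promoter in the RefSeq table (Il17a, Il17f and Il23r) and in 16.3% of 32851 promoters of the same length. Counted in bases from the transcript start at 0, it began at −120 in Il17a, on the minus strand, and at −58 in Il17f, on the plus strand. The AP-1 element was found in Il17a, at −244, and in Il22ra1, against 7.81% of all promoters. A STAT element (TTCNNNGAA), the kind of site bound downstream of the interleukin 22 and 23 receptors, was in none of the 6 and in 8.30% of all promoters. Both strands were searched, and no 2 matches within a member overlapped. A match is only a stretch of letters, and no binding was measured.

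Of the 7 members tested between polyps and Apc normal tissue, 5 were called, 3 higher and 2 lower, in a comparison in which 45.5% of all genes tested were called, 20.5% higher and 24.9% lower. Il23a and Il17a, a chain of the cytokine at the head of the axis and its best-known product, had the largest fitted differences, and Il17f was higher by a smaller amount. For Il17a that order depends on the setting: with normexp and quantile normalization it stood at 2.72 and Il22ra2 at −2.72, and within slide 2 at 4.45 and −5.08. Il22ra1 and its decoy counterpart Il22ra2 were lower, and Il22 and Il17ra were not called. The median difference of the 7 was 0.54, against −0.06 over all genes tested. Groups did not overlap for 5 of the 7, against 45.1% of all genes. With so large a share of all genes called, the member counts say little on their own. Il23a and Il17a also passed the filter only through the polyps, where they were high, so the count of higher members and the median lean upward.

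**Figure D1:**
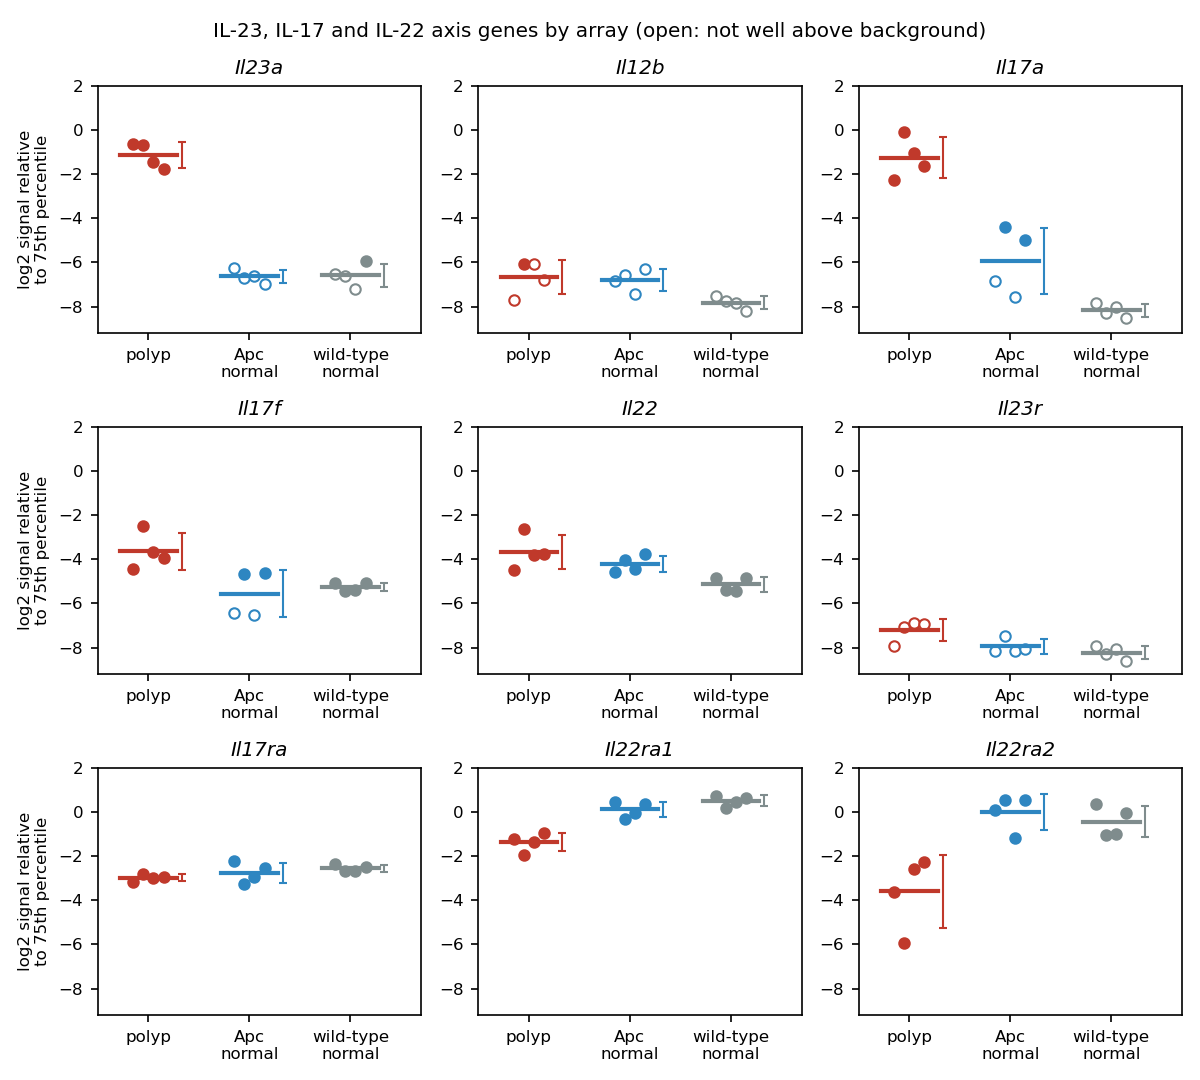
Level of each of the 9 genes on each array (log2 signal relative to the array's 75th percentile), in polyps, Apc normal and wild-type normal tissue, with group means as lines and SD as bars (n = 4 each). Filled points are well above background and open points are not. Il23a is filled on all 4 polyp arrays and on 1 of 8 normal tissue arrays, and Il23r is open on all 12.

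Il23a, the p19 chain that sets interleukin 23 apart from interleukin 12, was read by a probe at chr10:127733766-127733825 (mm9, minus strand). Its level in polyps of mice 103, 106, 107 and 110 was −0.63, −0.66, −1.45 and −1.79, against −6.24, −6.69, −6.62 and −6.99 in Apc normal tissue of those mice. In wild-type tissue of mice 102, 104, 105 and 108 it was −6.54, −6.60, −7.22 and −5.96. The probe was well above background on all 4 polyp arrays, on none of the Apc normal arrays and on 1 wild-type array (mouse 108), and polyps overlapped with neither normal tissue. Il23a was at least 24.0-fold higher in polyps than in Apc normal tissue (measured means −1.13 ± 0.58 and −6.63 ± 0.31, log2 difference 5.50 ± 0.29, limma adjusted p = 2.65e-05). It was higher in the polyp of each of the 4 mice. The call held within slide 2 and within slide 3 (limma adjusted p = 0.00970 and 0.0213). Since every Apc normal array was dim, the size is known only as the bound. With normexp background correction, which adds an offset to dim signals, and quantile normalization, the difference was 3.003 and still called. That is a smaller fold than 24.0, so the bound holds only for signals without that correction.

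Il12b encodes the p40 chain shared by interleukins 12 and 23, and its probe at chr11:44227121-44227180 was spotted 10 times per array. Its level was −7.69, −6.09, −6.06 and −6.78 in polyps, −6.84, −6.56, −7.44 and −6.27 in Apc normal tissue and −7.52, −7.75, −7.83 and −8.20 in wild-type tissue. It was well above background on 1 of 12 arrays, the polyp of mouse 106, so its order across groups is one of signals near background. No rise of the p40 chain alongside Il23a was measurable with this probe: without the filter, polyps and Apc normal tissue differed by 0.12 ± 0.41 (95% confidence interval −0.82 to 1.06, limma adjusted p = 0.838). Il12a, the p35 chain that pairs with p40 in interleukin 12, did not pass the filter either.

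Il17a, which recruits neutrophils through its action on epithelium and stroma, was read at chr1:20724404-20724463 (mm9, plus strand). Its level in polyps was −2.25, −0.08, −1.03 and −1.63, against −6.82, −4.40, −7.56 and −4.96 in Apc normal tissue of the same mice and −7.86, −8.27, −8.04 and −8.54 in wild-type tissue. Polyps overlapped with neither normal tissue, and the polyp of mouse 106 was the highest. The probe was well above background on all 4 polyp arrays, in Apc normal tissue of mice 106 and 110, and on no wild-type array, so the order of the dimmer normal arrays is one of signals near background. Il17a was 25.8-fold higher in polyps than in Apc normal tissue (−1.25 ± 0.93 and −5.94 ± 1.497, difference 4.69 ± 0.76, limma adjusted p = 0.00171). The size of that fold rests in part on signals near background, since Apc normal tissue of mice 103 and 107 was dim. Il17a was higher by 4.32 and 3.33 in the polyps of mice 106 and 110, where both arrays were above background, and higher too in those of mice 103 and 107. Within slide 2 (4.45) and slide 3 (4.93) the limma adjusted p was 0.0728 and 0.0651, with 2 arrays a side. Normexp and quantile normalization gave 2.72, still called.

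Il17f, the close relative of Il17a with which it also forms a heterodimer, was read by a probe whose 60 bases are spread over 1346 bases of genome (chr1:20768074-20769419, mm9, minus strand), which shows that it crosses an exon junction and so reads spliced RNA.
Il17f probe: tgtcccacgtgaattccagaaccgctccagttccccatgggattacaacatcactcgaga

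Its level was −4.45, −2.49, −3.68 and −3.95 in polyps, −6.44, −4.64, −6.52 and −4.60 in Apc normal tissue and −5.08, −5.43, −5.37 and −5.08 in wild-type tissue. As with Il17a, the polyp of mouse 106 was the highest, and in Apc normal tissue mice 106 and 110 stood above those of mice 103 and 107, which alone among the 12 were not above background. Il17f was 3.75-fold higher in polyps than in Apc normal tissue (−3.64 ± 0.83 and −5.55 ± 1.07, difference 1.91 ± 0.59, limma adjusted p = 0.0302), with within-mouse differences of 2.15 and 0.65 in mice 106 and 110, the pair with both arrays above background. The size of that fold rests in part on the dim Apc normal arrays of mice 103 and 107. Normexp and quantile normalization gave 0.81, still called. That call was the least firm of the 5. It ended without the polyp array of mouse 106, 107 or 110 (limma adjusted p = 0.0752, 0.0608 and 0.0512) and without Apc normal tissue of mouse 103 or 107 (0.0750 and 0.0689). It also ended within slide 2 and slide 3 (0.205 and 0.206) and without both arrays of mouse 103, 106 or 107 (0.0673, 0.0502 and 0.117).

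**Figure D2:**
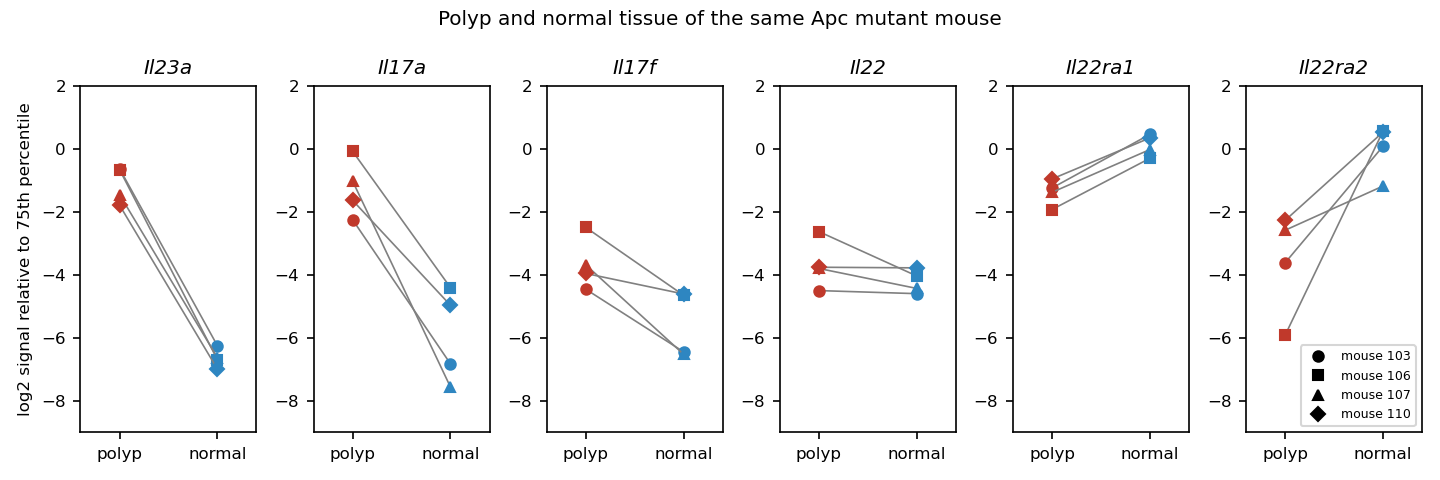
Levels of 6 of the genes (log2 signal relative to the array's 75th percentile) in polyp and normal tissue of the same Apc+/Δ716 mouse, joined by a line, with 1 symbol per mouse. All 4 lines slope down to normal tissue for Il23a, Il17a and Il17f, and up for Il22ra1 and Il22ra2. For Il22 the lines of mice 103 and 110 are nearly level, with differences of 0.10 and 0.02.

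Il22, which acts on epithelium to induce antimicrobial and repair genes, was read by a probe at chr10:117642873-117642932 (mm9, plus strand). The probe is shown because the array file assigns it to 2 RefSeq transcripts, Il22 and its near-identical copy Iltifb, so its signal cannot be divided between them.
Il22 probe: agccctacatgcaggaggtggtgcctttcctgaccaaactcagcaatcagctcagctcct

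The 2 probes specific to Iltifb in the files were well above background on 0 of 12 arrays. The level read by the shared probe was −4.50, −2.62, −3.79 and −3.76 in polyps, −4.59, −4.03, −4.43 and −3.77 in Apc normal tissue and −4.85, −5.41, −5.43 and −4.85 in wild-type tissue, above background on all 12 arrays. Polyps overlapped with Apc normal tissue, and both lay above wild-type tissue without overlap. Polyps and Apc normal tissue differed by 0.54 ± 0.38 (−3.67 ± 0.77 and −4.21 ± 0.37, 95% confidence interval −0.34 to 1.42, limma adjusted p = 0.282). Within mice the difference was 0.10, 1.41, 0.63 and 0.02. In the same samples the 95% confidence interval of the Il17a difference, 2.93 to 6.45, lay above that of Il22. For Il17a, however, 2 Apc normal arrays were dim, and its value with normexp and quantile normalization, 2.72, lay below that interval. How far the 2 genes differ is thus not sized.

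Il23r, the receptor chain specific to interleukin 23, was read by a probe (chr6:67372966-67373025, mm9, minus strand) well above background on 0 of 12 arrays, with levels of −7.93 to −6.87 in polyps, −8.14 to −7.46 in Apc normal and −8.61 to −7.93 in wild-type tissue. No fold is given for it. Its partner chain Il12rb1 was above background in every group, with −3.74, −3.78, −3.86 and −2.24 in polyps, −4.55, −3.42, −4.81 and −2.19 in Apc normal tissue and −4.13, −3.85, −3.86 and −3.50 in wild-type tissue. It did not differ beyond its spread between polyps and Apc normal tissue (0.34 ± 0.62, limma adjusted p = 0.683).

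Il17ra, the receptor chain that interleukins 17A and 17F share, was read at chr6:120432880-120432939 (mm9, plus strand). It varied little: −3.16, −2.81, −2.99 and −2.94 in polyps, −2.22, −3.27, −2.93 and −2.56 in Apc normal and −2.37, −2.66, −2.69 and −2.47 in wild-type tissue. Polyps lay within the range of Apc normal tissue (difference −0.22 ± 0.22, 95% confidence interval −0.74 to 0.29, limma adjusted p = 0.442), with 3 mice lower and mouse 106 higher in the polyp. Its partner Il17rc, which completes the interleukin 17A receptor, was lower in polyps: 2.48, 2.28, 2.41 and 2.53, against 4.56, 4.04, 4.19 and 4.02 in Apc normal tissue. The groups did not overlap (−1.77 ± 0.14, 3.42-fold lower, limma adjusted p = 0.000100).

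Il22ra1, the epithelial receptor chain for interleukin 22, has 2 probes. The brighter, at chr4:135310900-135310959 (mm9, plus strand), was used throughout. It read −1.24, −1.92, −1.38 and −0.95 in polyps, 0.46, −0.30, −0.02 and 0.35 in Apc normal tissue and 0.74, 0.18, 0.46 and 0.64 in wild-type tissue. Polyps lay below both normal tissues on every array. In polyps Il22ra1 was 2.82-fold lower than in Apc normal tissue (−1.37 ± 0.41 and 0.12 ± 0.35, difference −1.496 ± 0.25, limma adjusted p = 0.00175), by 1.30 to 1.70 within each mouse. Within slide 2 (−1.66) and slide 3 (−1.33) the limma adjusted p was 0.0629 and 0.0608. The other probe, upstream of it at chr4:135307221-135307280, is shown as another reading of the same gene.
Il22ra1 probe: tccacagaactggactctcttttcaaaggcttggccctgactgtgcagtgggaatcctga

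It read −6.29, −5.58, −6.47 and −5.33 in polyps, −4.69, −5.05, −5.66 and −5.09 in Apc normal and −4.06, −4.83, −4.38 and −4.08 in wild-type tissue, above background on 2, 2 and 4 arrays. Polyps and Apc normal tissue overlapped on it, and with 2 of 4 arrays dim in each tissue it gives no second size for the difference. The mean of both probes gave −1.14. Il10rb, the second chain of the interleukin 22 receptor, was also lower in polyps (−0.60 ± 0.12, 1.51-fold, limma adjusted p = 0.00472).

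Il22ra2, the decoy receptor, was read at chr10:19354355-19354414 (mm9, plus strand). Its level was −3.61, −5.91, −2.58 and −2.27 in polyps, against 0.08, 0.56, −1.18 and 0.53 in Apc normal tissue and 0.35, −1.05, −0.98 and −0.03 in wild-type tissue. Polyps overlapped with neither normal tissue, and the polyp of mouse 106, the one with the highest Il17a and Il22, was the lowest. In polyps Il22ra2 was 12.1-fold lower than in Apc normal tissue (difference −3.59 ± 0.80, limma adjusted p = 0.00737). With normexp and quantile normalization the difference was −2.72, still called. The within-mouse differences, −3.70, −6.47, −1.40 and −2.80, had the widest range of any member. Without the polyp array of mouse 106 the difference was −2.82 and remained called. The call ended within slide 3 (−2.10, limma adjusted p = 0.130, against −5.08 and 0.0321 within slide 2) and with the normal tissue of mice 106 and 110 left out (−3.04, 0.0574). Dendritic cells are a known source of this decoy. Their marker means were −3.94 to −2.51 in polyps and −3.26 to −2.13 in Apc normal tissue. Of 7 markers 1 was called, against 45.5% of all genes: Cd209a, a dendritic cell lectin, at −2.72. The others went both ways without a call: Ccr7 and Itgax were higher (1.01 and 0.63), and Flt3, Clec9a, Zbtb46 and Batf3 lower (−0.71 to −0.20). Against wild-type tissue 4 of 7 dendritic cell markers were called higher and 1, Cd209a, lower, where 27.4% of all genes were called higher and 32.8% lower. B cell and follicle markers averaged −4.00, −4.10, −2.04 and −2.18 in polyps of mice 103, 106, 107 and 110, against −2.08, −0.16, −2.81 and 0.20 in Apc normal tissue. The polyps of mice 103 and 106, with the lowest Il22ra2, had the lowest follicle marker means. This was not particular to follicle markers. In the same order of mice, polyp means were −0.50, −1.21, −0.12 and 0.42 for smooth muscle and 2.74, 2.24, 2.99 and 3.14 for absorptive colonocyte markers. Epithelial markers were also lowest in mice 103 and 106, while T cell, dendritic cell, neutrophil, macrophage and fibroblast markers did not share the pattern. The part of any of these lists in the Il22ra2 difference was not tested.

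**Figure D3:**
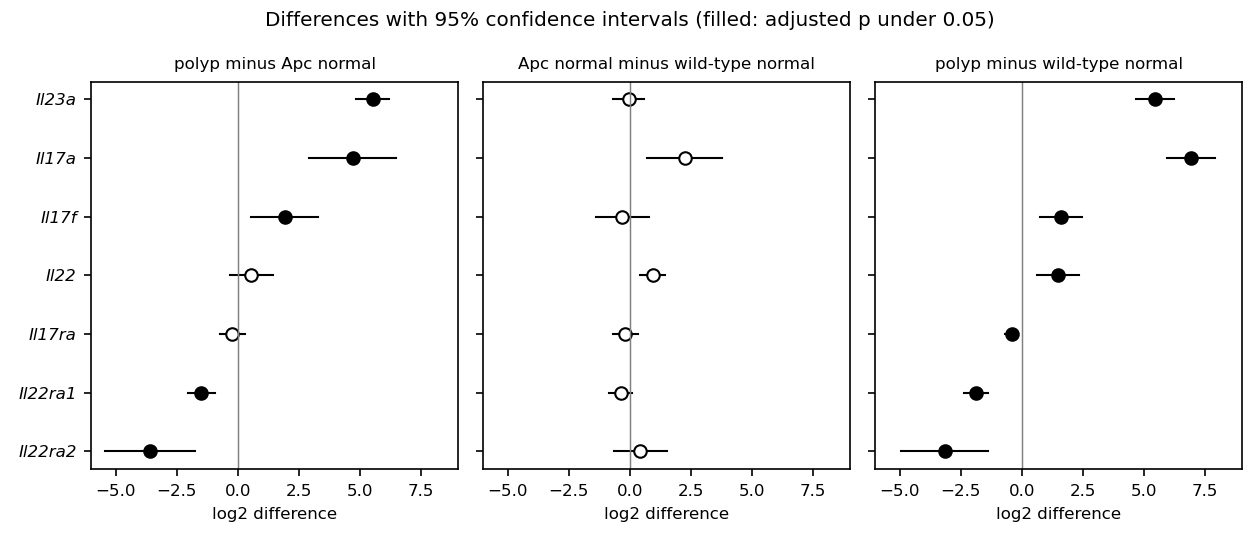
Log2 difference of the 7 tested genes in 3 comparisons (polyp minus Apc normal, Apc normal minus wild-type normal, polyp minus wild-type normal), with 95% confidence intervals from limma. Filled points have an adjusted p under 0.05: 5, 0 and 7 of the 7. Points of genes dim in 1 group are fitted values, not bounds.

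Apc normal tissue was set against wild-type tissue to ask whether the mutant mucosa differed without a polyp. None of the 7 members was called, in a comparison in which 0.169% of all genes tested were called (34 genes) and 17.1% had an unadjusted p under 0.05, as did 2 of the 7 members in limma. These were Il17a and Il22. For Il17a the probe was above background on 2 Apc normal and 0 wild-type arrays, so no fold is given. Its fitted difference of 2.24 ± 0.66 (limma adjusted p = 0.174) was 0.45 with normexp and quantile normalization (0.202). Il22 lay higher in Apc normal tissue without overlap, against 10.3% of all genes without overlap in either direction, and differed by 0.93 ± 0.23 (95% confidence interval 0.40 to 1.45, limma adjusted p = 0.125, and 0.41 with normexp and quantile normalization). The others differed by −0.06 ± 0.27 (Il23a), −0.31 ± 0.48 (Il17f), −0.20 ± 0.22 (Il17ra), −0.38 ± 0.20 (Il22ra1) and 0.43 ± 0.47 (Il22ra2), with limma adjusted p of 0.369 to 0.940. The Apc normal arrays split by mouse: those of mice 106 and 110, where Il17a and Il17f were above background, also had the higher T cell marker means (−0.73 and −0.63, against −1.85 for each of mice 103 and 107) and B cell and follicle means. The part of these cells in the Il17a and Il17f values was not tested.

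**Figure D4:**
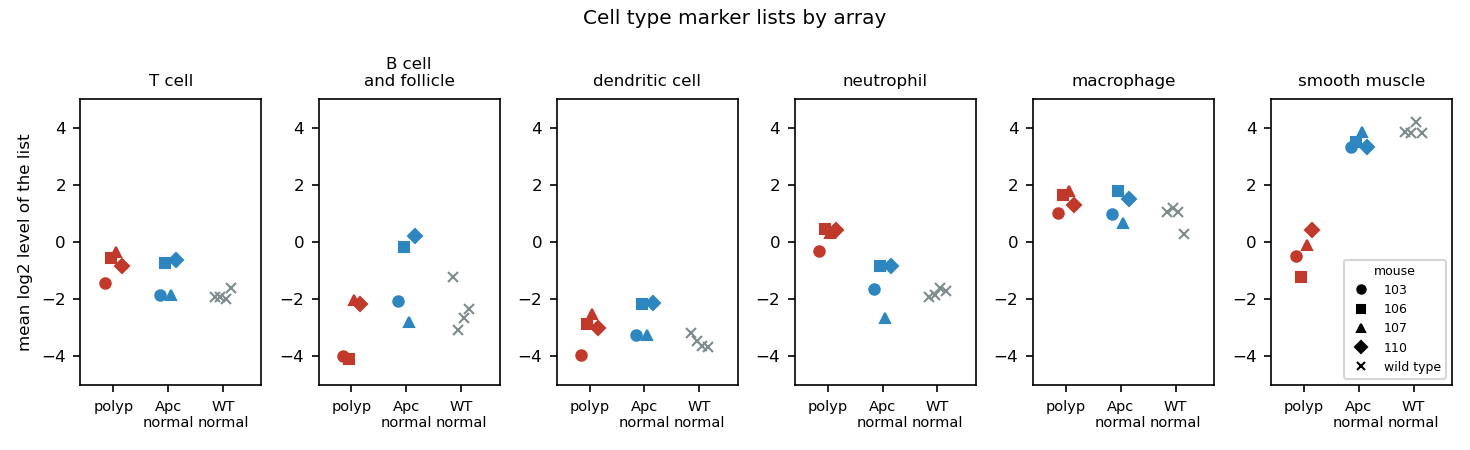
Mean level of 6 marker lists on each array (log2 signal relative to the array's 75th percentile), with 1 symbol per Apc+/Δ716 mouse and crosses for wild-type mice. In Apc normal tissue the arrays of mice 106 and 110 lie above those of 103 and 107 in T cell, B cell and follicle, dendritic cell, neutrophil and macrophage markers. In smooth muscle markers all polyps lie below all normal tissue.

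Polyps were also set against wild-type tissue. This comparison shares its polyp arrays with the first and its wild-type arrays with the second, so it adds no independent samples. All 7 members were called, 4 higher and 3 lower, where 60.2% of all genes were called, 27.4% higher and 32.8% lower. Il23a and Il17a, among the 4 higher, passed the filter only through the polyps. Groups did not overlap for any of the 7, nor for 56.7% of all genes. Il17a was at least 25.4-fold higher (6.93 ± 0.43, limma adjusted p = 9.82e-06), and Il23a differed by 5.45 ± 0.34 (1.06e-05). Il17f was 3.03-fold and Il22 2.76-fold higher (1.60 ± 0.37 and 1.47 ± 0.37, limma adjusted p = 0.00641 and 0.00913). Il22ra1 was 3.68-fold and Il22ra2 8.96-fold lower (−1.88 ± 0.22 and −3.16 ± 0.78, limma adjusted p = 0.000152 and 0.00802). With normexp and quantile normalization all 7 stayed called at smaller differences: 3.17 for Il17a, 2.99 for Il23a, 0.71 for Il17f, 0.72 for Il22 and −2.31 for Il22ra2. The bound for Il17a thus holds for signals without that correction. Il17ra was 1.34-fold lower (−0.42 ± 0.11, limma adjusted p = 0.0110), a call that ended with all 12 arrays in 1 fit (0.0866) and with slide as a random block (0.0526). Without the filter the dim probes of Il12b and Il23r also passed the threshold (limma adjusted p = 0.0344 and 0.0157), although they were above background on 1 and 0 arrays.

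The genes around the axis were read as lists, also chosen with earlier results of these data known, so their counts are a description. Those counts stand against 20.5% of all genes called higher and 24.9% called lower between polyps and Apc normal tissue. Of 7 partner chains and interleukin 12 family genes tested between polyps and Apc normal tissue, 0 were higher and 2 lower, Il17rc and Il10rb (median −0.45, against −0.06 over all genes). Other members of the interleukin 17 family went both ways, 2 higher and 2 lower of 5. Il17c, the epithelial ligand of the family, read −3.67, −2.74, −3.47 and −3.14 in polyps, against −7.16, −6.04, −6.39 and −4.79 in Apc normal tissue (7.17-fold higher, 2.84 ± 0.47, limma adjusted p = 0.00181). Il17c was well above background on all 4 polyp arrays but on only 1 Apc normal array, so the size of its fold rests on signals near background. It passed the filter only through the polyps, and its receptor Il17re is not so limited. Il17re read −0.70, −1.65, −1.06 and −0.90 in polyps, against 1.60, 0.98, 1.06 and 1.20 in Apc normal tissue (4.88-fold lower, −2.29 ± 0.23, limma adjusted p = 0.000205). Ligand and receptor thus differed in opposite directions. Il17rd, a receptor-like regulator, was 4.68-fold higher (2.23 ± 0.19, limma adjusted p = 0.000114) and Il17d was lower by 0.85. Of the other interleukin 10 and 20 family genes, 3 were tested and 0 called in limma, none with an unadjusted p under 0.05.

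Genes of the lymphocytes that make interleukins 17 and 22 gave these counts, against 45.5% of all genes called: of 13 reported, 4 were higher and 1 lower (median 0.68), and 8 were not called. Csf2, the cytokine GM-CSF, was at least 7.07-fold higher in polyps, with −3.86, −1.94, −2.77 and −3.00, against −7.33, −7.00, −7.71 and −6.58 in Apc normal tissue (4.26 ± 0.41, limma adjusted p = 0.000177). It passed the filter only through the polyps. Ahr, a ligand-activated factor needed for interleukin 22 expression, was 1.79-fold higher (0.84 ± 0.12, limma adjusted p = 0.000910). Id2, a transcriptional regulator needed for innate lymphoid cells and also expressed in epithelium, was 2.13-fold higher (1.09 ± 0.17, limma adjusted p = 0.00126). Il1r1, the interleukin 1 receptor, was the other higher (0.68), and Il6ra, the interleukin 6 receptor chain, the one lower (−0.77). T cell markers were called in 2 of 7, Zap70 and Lck, both higher, and averaged −1.43 to −0.36 in polyps and −1.85 to −0.63 in Apc normal tissue.

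Of 14 signalling and feedback genes, 3 were higher and 0 lower (median 0.17). Socs3, the feedback inhibitor of STAT3 signalling, read 2.43, 3.01, 2.43 and 2.37 in polyps, against −0.81, 1.07, −0.22 and 0.64 in Apc normal tissue, without overlap (5.26-fold, 2.39 ± 0.40, limma adjusted p = 0.00182). Cebpb, a transcription factor that takes part in interleukin 17 responses, was 2.29-fold higher (1.20 ± 0.21, limma adjusted p = 0.00271), and Traf3, an inhibitor of interleukin 17 receptor signalling, 1.57-fold (0.65 ± 0.17, 0.0146). Stat3 itself differed by 0.09 ± 0.15 (limma adjusted p = 0.653).

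Genes known to respond to interleukin 17 were mostly higher in polyps: 11 of 15 higher and 2 lower, with a median of 5.54 (5.24 with the 4 genes that have only a bound set at it), against −0.06 over all genes. Those 4, Cxcl2, Cxcl3, Il6 and Csf3, passed the filter only through the polyps, where they were high, so the count and median lean upward. A further gene of the list, Ccl20, did not pass and was above background on 1 Apc normal array alone. Mmp13, a collagenase, read 3.0, 3.97, 3.72 and 3.65 in polyps, against −3.66, −2.82, −3.83 and −3.31 in Apc normal tissue (127-fold, 6.99 ± 0.28, limma adjusted p = 9.87e-06). Cxcl3, a neutrophil chemokine, read −0.80, 1.26, 0.01 and 0.61 in polyps, against −7.82, −7.06, −7.59 and −7.94 in Apc normal tissue, where it was above background on no array (at least 63.4-fold, 7.87 ± 0.42, limma adjusted p = 2.65e-05). Its relative Cxcl2 was at least 33.5-fold higher (7.18 ± 0.43, limma adjusted p = 4.04e-05). The other 8 higher were Cxcl1, Cxcl5, Csf3, Il6, Lcn2, S100a8, S100a9 and Mmp3. The 2 lower were Pigr, the epithelial transporter of IgA, at −1.82 ± 0.17 (limma adjusted p = 0.000169), and Duox2, a peroxide-forming oxidase, at −0.90 ± 0.25 (0.0185). Nos2 stood at 2.44 ± 0.87 (limma adjusted p = 0.0504) and Duoxa2 at −0.20 ± 0.35. S100a8, S100a9 and Lcn2 are also made by neutrophils, whose markers averaged −0.32 to 0.47 in polyps and −2.66 to −0.83 in Apc normal tissue. Of 7 neutrophil markers 2 were called, Cxcr2 and Mmp9, both higher, against 45.5% of all genes called. The neutrophil list was not uniform. Without a call, Camp and Ltf were higher (0.95 and 3.49) and Ly6g, Elane and Csf3r lower (−0.92, −0.19 and −0.06). Against wild-type tissue 3 of 7 neutrophil markers were called higher and 2 lower, where 27.4% of all genes were called higher and 32.8% lower. Many of these genes answer to other cytokines too, and the part of interleukin 17 or of neutrophils in their levels was not tested.

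Genes known to respond to interleukin 22 were mixed, 3 higher and 4 lower of 11 (median 0.40). Saa3, an acute-phase protein, read 2.04, 4.73, 4.90 and 4.13 in polyps, against −2.88, 0.26, −1.22 and −0.08 in Apc normal tissue (30.4-fold, 4.93 ± 0.84, limma adjusted p = 0.00211). Its relatives Saa1 and Saa2, near-identical copies whose single values are uncertain, went the other way (−1.51 ± 0.30 and −1.75 ± 0.31, limma adjusted p = 0.00402 and 0.00263). Reg3g, an antimicrobial lectin, read 4.45, 4.03, 6.10 and 5.13 in polyps, against −3.48, 0.70, 4.78 and −0.30 in Apc normal tissue and −3.93, −5.52, −5.26 and −4.54 in wild-type tissue. Its Apc normal arrays spanned more than its polyp or wild-type arrays, and that of mouse 107 lay within the range of the polyps (4.50 ± 1.53, limma adjusted p = 0.0420). Il18 and Fut2 were the other 2 lower (−1.34 and −0.84) and Osmr the other higher (1.49). Between Apc normal and wild-type tissue limma called 0 of the 68 genes tested in these 7 lists, against 0.169% of all genes, and 22 had an unadjusted p under 0.05, against 17.1%. Between polyps and wild-type tissue 13 of 15 interleukin 17 response genes were higher and 1 lower, and 6 of 11 interleukin 22 response genes higher and 3 lower, against 27.4% of all genes higher and 32.8% lower. Cxcl2, Cxcl3, Il6 and Csf3, which passed the filter only through the polyps, are among the 13.

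**Figure D5:**
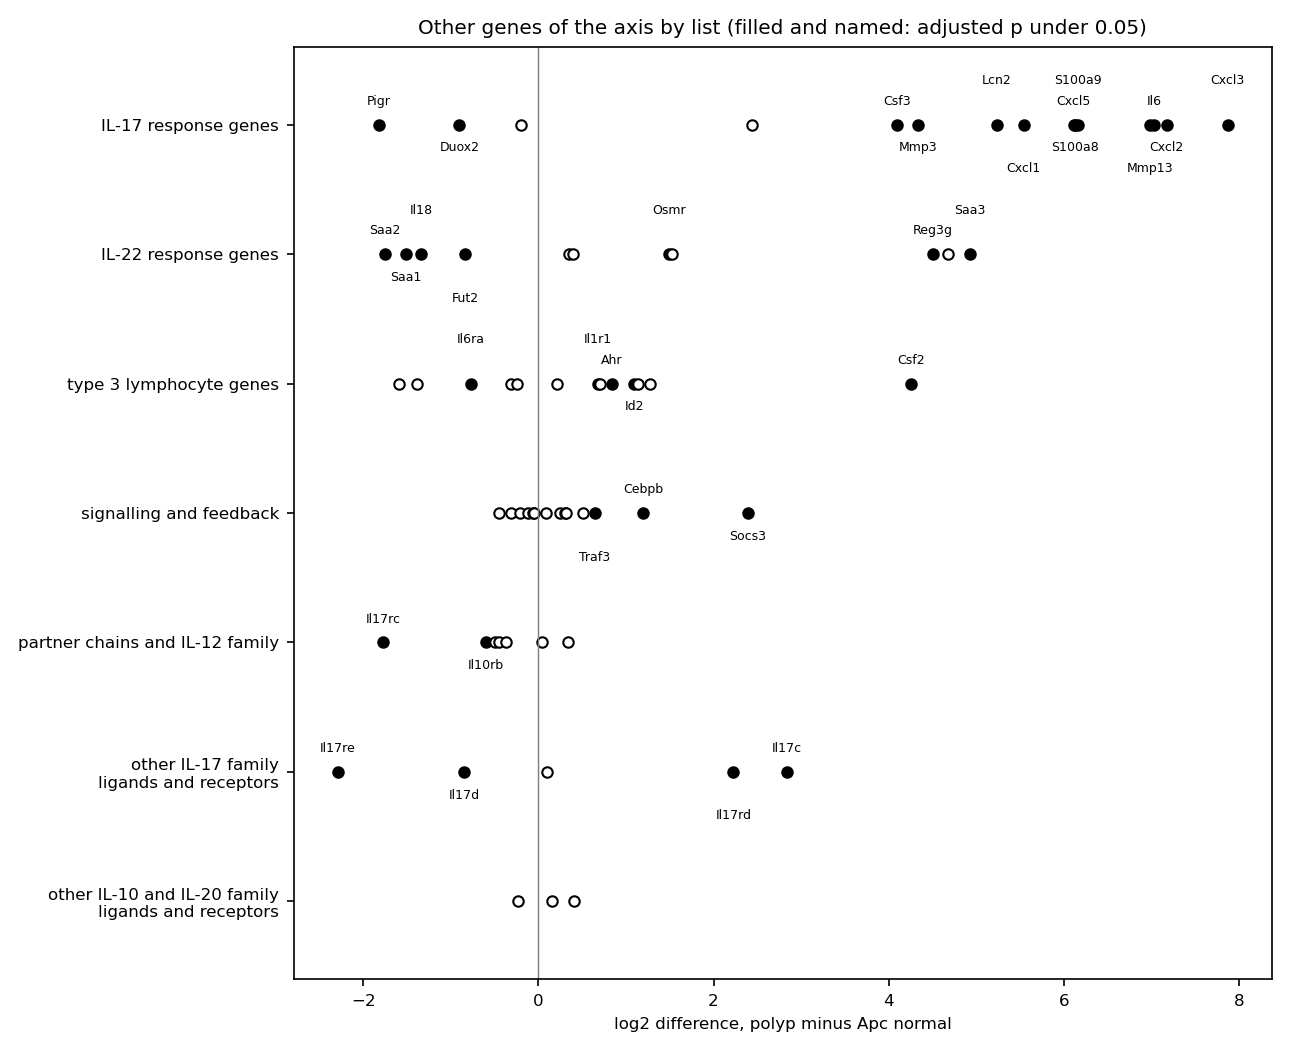
Log2 difference (polyp minus Apc normal) of each gene tested in 7 lists around the axis. Filled, named points have a limma adjusted p under 0.05. The interleukin 17 response list has 11 filled points above 0, at 4.09 or more, while the interleukin 22 response list has 3 above and 4 below. Cxcl2, Cxcl3, Il6, Csf3 and Csf2 are plotted at their fitted values and have only a bound.

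The genes whose levels ran most like those of a member over the 12 arrays were named by Pearson correlation, as a description in which arrays share mice and a large difference between polyps and normal tissue. Genes known only by a clone, LOC or predicted-gene name were passed over. For Il23a the genes named were Mdfi (r = 0.991), Tmod3 (0.990) and Krt7 (0.989). For Il17a they were Ifitm1 (0.993), with means of 5.01 in polyps, 2.60 in Apc normal and 1.45 in wild-type tissue, and the alpha-defensins Defa42 and Defa21 (0.986 each), near-identical copies whose single values are uncertain. For Il17f they were Iqcb1, Tex10 and Thsd1 (0.971, 0.963 and 0.952), and for Il22 Canx, Neb and Ltb4r1 (0.934, 0.922 and 0.919). Il17ra had the weakest, Tjp1, Kif21b and Rcbtb1 (0.888, 0.884 and 0.880). For Il22ra1 they were Rhbdl2 (0.992), Gpa33, an antigen of intestinal epithelium (0.988), and Map2k6 (0.988), and for Il22ra2 Olfr649, Smpdl3a and Prr13 (0.969, 0.965 and 0.961). No gene was among the 3 of more than 1 member. With 3 genes taken per member out of 20082 tested, this says little about likeness between members.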

How the data were processed

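The members and the gene lists were chosen with earlier results of these data known. RNA of 12 colorectal samples was labelled with Cy3, per the labels' protocols. The deposited scanner files hold background-subtracted spot intensity on a linear scale, made with Agilent Feature Extraction 10.7.3.1 per the file headers and the submitters' processing notes. A value table, also deposited, holds a linear ratio of unstated making. For at least 99.8% of entries on each array it equalled the scanner's processed signal over 1 constant, to within 1%. Its column medians ran from 0.9999 to 1, and its genes were not centred. The files give mm9 coordinates.

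Outlier spots (1403) and control spots were dropped. Log2 values were averaged over a probe's spots and the array's 75th percentile was subtracted. Of 39429 probes, 27508 got their name by RefSeq accession, 3544 by symbol and 404 by synonym from a GRCm38.p6 table, while 7973 kept that of the file. A gene with several probes was read from the probe with the highest mean of all 12 arrays. limma 3.58.1 (R 4.3.3, lmFit then eBayes, two-sided) was run on the 8 arrays of each comparison, with Benjamini-Hochberg adjustment over 20082 genes, and was tested on simulated data. For a bound, each dim array was given the probe's signal or, where higher, the lowest signal there of any probe well above background (−6.60 to −5.17), and the mean of these was taken from the bright group's mean. All bounds were made on signals without normexp correction. Named are all members, up to 3 called genes of smallest p per list and the 3 genes most correlated with each member, passing over clone, LOC and predicted-gene names. Other list genes were named after their values were seen. One gene of the lymphocyte list is not reported here and was left out of its counts.

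Polyp and normal arrays with the same number in the titles come from 1 mouse. Across genes, their deviations from the group means had r = 0.143 to 0.455, and those of different mice −0.329 to 0.193.

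The marker lists, between polyps and Apc normal tissue, gave these calls, against 20.5% of all genes called higher and 24.9% called lower. Of T cell markers 2 of 7 were higher, of neutrophil markers 2 of 7, of macrophage markers 1 of 8 and of fibroblast markers 1 of 8, with 2 lower. Lower were 1 of 7 dendritic cell, 2 of 9 B cell and follicle (median −1.82), 4 of 8 epithelial, 6 of 7 absorptive colonocyte and 8 of 8 smooth muscle markers. The colonocyte marker Ms4a12 was not found on the array under that name.

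Alternatives were scaling by the median, quantile normalization with and without normexp (offset 50), the value table, other filters on dim probes, averaging a gene's probes, a joint fit of 12 arrays, array weights, a robust fit with a variance trend, slide or mouse as a block, single slides, and omission of single arrays or mice. Omission of the Apc normal arrays of mice 106 and 110 was added after seeing the data.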

Additional observations from a re-analysis of the deposited data

Results flagged for a closer look

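The level of Il23r on the Apc normal array of mouse 106, −7.46, lay apart from the other 3 Apc normal arrays, the nearest of which stood at −8.06. The gap was 0.887 of the group's range. The probe was well above background on 0 of 12 arrays. Chance marks about 1 in 20 groups of this size.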

How the results depend on the processing

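Between polyps and Apc normal tissue 5 members were called, and 4 to 5 with an array left out. The count was 2 of 4 when every array of both groups had to be above background, since Il23a, Il17a and Il17f then go untested, and 2 and 1 within slide 2 and slide 3, with 2 arrays a side. With mouse as a replicate block (paired by animal) 5 were called and no member's call changed. Between Apc normal and wild-type tissue limma called 0 members under every alternative, but the count of all genes called, 34, ranged from 0 to 814 (2 to 530 with an array left out). Between polyps and wild-type tissue 7 were called, and 5 to 9 over the alternatives. Of 461 member values under alternatives, 437 kept direction and call, 18 lost the call and 6 turned sign, none of them called. Without both arrays of mouse 103, Il17ra turned to 0.012 between polyps and Apc normal tissue. Between Apc normal and wild-type tissue, with 1 array left out, Il23a ranged from −0.27 to 0.15 and turned positive without Apc normal tissue of mouse 110 (0.06) or wild-type tissue of mouse 108 (0.15), and Il17f ranged from −0.62 to 0.014, positive without Apc normal tissue of mouse 107. With the normal tissue of mice 106 and 110 left out, Il23a turned to 0.15 and Il22ra2 to −0.12. The cause was not tested. The genes called between polyps and Apc normal tissue, 9129, numbered 3466 and 1902 within slide 2 and slide 3. Signal near background limits Il23r on all arrays, Il12b on all but 1, Il23a and Il17a in normal tissue, and Il17f in Apc normal tissue of mice 103 and 107.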
